A study of Caenorhabditis elegans with 36 samples.

Results

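The comparison described here is that of 2-day-old adult Caenorhabditis elegans of 123CUG strain 1 with adults of the same age from 0CUG strain 1 and 0CUG strain 2. It takes 9 of the 36 RNA sequencing libraries of the study, 3 per strain, chosen by the strain and stage in their labels. A gene was counted as changed only where 123CUG strain 1 differed from each of the 0CUG strains, taken separately and in the same direction. Controls included, all these animals carry an integrated transgene in which the myo-3 promoter drives gfp in body wall muscle. In 123CUG strain 1 (mgIs64[myo-3p::gfp::3'utr123(CUG)]) the untranslated region after gfp holds 123 CUG repeats, and in 0CUG strain 1 (mgIs65[myo-3p::gfp::3'utr0(CUG)]) and 0CUG strain 2 (mgIs85[myo-3p::gfp::3'utr0(CUG)]) it holds 0. A second repeat strain, 123CUG strain 2 (mgIs84, with the same construct), and the L4 larvae (the last larval stage) of the 3 strains are used where stated. Each strain is a single integrated line, so the repeat and whatever else a line carries cannot be told apart within 1 strain. RNA came from whole worms of a Bristol background, synchronised with hypochlorite and fed HT115 bacteria that held an empty RNAi vector, so muscle is measured together with every other tissue.

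RNA with long CUG repeats folds into hairpins that collect in nuclear foci and bind muscleblind proteins, which are splicing regulators. In humans such an expansion causes myotonic dystrophy type 1, a disease of muscle and other tissues. The worm has a single muscleblind gene, mbl-1, and its body wall muscle is made of sarcomeres anchored through the hypodermis to the collagen cuticle. The title of the study ties mbl-1 in repeat-expressing worms to mitochondrial shape through carnitine palmitoyltransferase, the enzyme that hands long-chain fatty acids to carnitine for entry into mitochondria.

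The 9 libraries held 27726626 to 42123440 reads in genes, and ribosomal RNA took 0.219 to 2.03% of them. The library with the most reads and the least ribosomal RNA was replicate 2 of 0CUG strain 1, which also had reads in the largest number of genes, 18175. Whether a strain's libraries come from separate cultures is not in the labels; p-values here therefore reflect library-to-library spread only, and part of it may be technical. The first principal component of log2 expression held 35.5% of the variance and set 0CUG strain 1 (scores of 66.15 to 79.68) apart from both 123CUG strain 1 (-26.05 to -21.29) and 0CUG strain 2 (-56.34 to -42.27). The second held 24.6% and set 123CUG strain 1 (54.28 to 67.66) apart from 0CUG strain 1 (-13.63 to -11.08) and 0CUG strain 2 (-49.09 to -45.15). Marker levels also differed between the control strains: 4 sperm markers summed to 0.354 to 2 CPM (read counts scaled to library size) in 123CUG strain 1, to 14.8 to 15.1 in 0CUG strain 1 and to 0.193 to 0.485 in 0CUG strain 2. Only 1 of these 4 markers had enough reads to test. A wider list of 29 sperm genes had 6 higher and 4 lower in 0CUG strain 1 than in 0CUG strain 2 (edgeR). Its median log2 fold change between the controls was -0.01.

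Of 13784 genes tested, edgeR's quasi-likelihood test at an adjusted p under 0.05 found 455 that rose in 123CUG strain 1 against both 0CUG strains (3.30% of the genes tested) and 232 that fell against both (1.68%), 4.98% in all. The change was at least 2-fold against each control in 163 of the rises and 98 of the falls. Against 0CUG strain 1 alone, 2733 genes were higher (19.8%) and 1545 lower (11.2%), 31.0% called in all. Against 0CUG strain 2 alone, 1237 were higher (8.97%) and 1485 lower (10.8%), 19.7% in all. The 0CUG strains differed from each other in more genes still, 2844 higher (20.6%) and 3488 lower (25.3%) in strain 1 than in strain 2, 45.9% in all. A further 624 genes (4.53%) were called against both controls in opposite directions, of which 559 were above 0CUG strain 1 and below 0CUG strain 2. Both contrasts use the same 3 libraries of 123CUG strain 1, so the 2 calls of a gene are not independent. In 442 of the 455 rises all 3 libraries of 123CUG strain 1 lay above all 6 control libraries, a separation that 5.78% of all genes tested showed, called or not (3.21% both called and separated). In 206 of the 232 falls all 3 lay below all 6, against 3.90% of all genes tested, called or not (1.49% both called and separated).

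**Figure D1:**
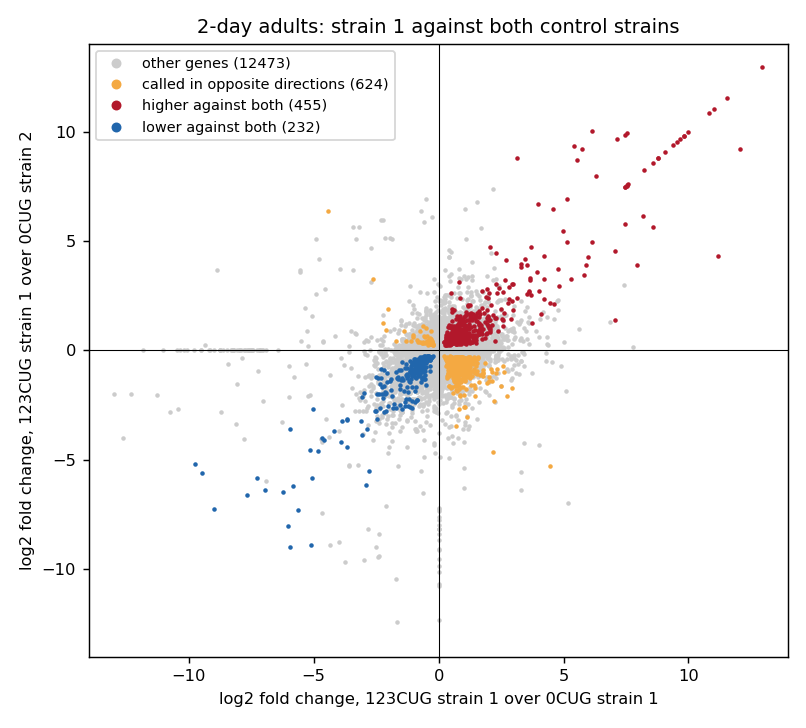
Each point is 1 of 13784 genes, with the log2 fold change of 123CUG strain 1 over 0CUG strain 1 on the horizontal axis and over 0CUG strain 2 on the vertical axis, both in 2-day adults. Red points are the 455 genes higher against both, blue points the 232 lower against both, and orange points the 624 called in opposite directions, most of them at the lower right; since both axes share the 123CUG libraries, the slant of the cloud is not a result.

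mbl-1 itself had 17.4, 20.4 and 15.9 CPM in the libraries of 123CUG strain 1, against 10.9, 10.1 and 7.51 in 0CUG strain 1 and 21.8, 23.2 and 24.3 in 0CUG strain 2. The 123CUG strain lay between its controls: it was above 0CUG strain 1 (log2 fold change 0.93 ± 0.172 SE, adjusted p = 0.000132) and did not differ from 0CUG strain 2 past the threshold (-0.34 ± 0.169, adjusted p = 0.162). A gene annotated on the same strand, K02H8.4, overlaps mbl-1 and may share its reads. myo-3, the body wall myosin whose promoter drives the transgene, had 16.9, 16.5 and 22.1 CPM in 123CUG strain 1, 15, 16.1 and 15.5 in 0CUG strain 1 and 11.7, 17.9 and 16.3 in 0CUG strain 2, and passed the test against neither (adjusted p = 0.255 and 0.267). Levels of the transgene RNA were not analysed here. Of 26 splicing factor genes tested, mbl-1 included, edgeR's test called 0 in the same direction against both controls. With an unadjusted p under 0.05 there were 4 higher and 0 lower; DESeq2 called 1 higher, as edgeR did without replicate 1 or 3 of 0CUG strain 1, and the medians of the log2 fold changes were 0.11 and 0.22 against 0.05 and 0.01 for all genes tested.

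The gene group with the most members higher against both controls, together with collagens, was that of the sarcomere and its attachments. Of 56 genes tested 19 rose (33.9%, against 3.30% of all genes), and 0 fell in edgeR's test (0 in DESeq2, and 1 at an unadjusted p under 0.05). The median log2 fold change of the list was 0.27 over 0CUG strain 1 and 0.42 over 0CUG strain 2. The rises took in thick and thin filament genes alike. mlc-3, an essential myosin light chain, had 841, 962 and 847 CPM in 123CUG strain 1, against 296, 347 and 351 in 0CUG strain 1 and 270, 347 and 296 in 0CUG strain 2. Its log2 fold changes were 1.44 ± 0.107 and 1.56 ± 0.108 (adjusted p = 1.59e-10 and 5.15e-11). unc-54, the main myosin heavy chain of body wall muscle and named here after its values were seen, had 235, 294 and 268 CPM in 123CUG strain 1, 163, 174 and 135 in 0CUG strain 1 and 160, 221 and 170 in 0CUG strain 2. Its lowest library in the repeat strain was still above the highest control library, and the log2 fold changes were 0.78 and 0.56.

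Thin filament members rose by similar amounts. The tropomyosin gene lev-11 averaged 632 ± 63.8 CPM in 123CUG strain 1, 355 ± 26.3 in 0CUG strain 1 and 401 ± 53.4 in 0CUG strain 2 (SD, n = 3 each). The troponin T gene tnt-2 averaged 260 ± 19.3 in 123CUG strain 1, 161 ± 9.91 in 0CUG strain 1 and 121 ± 7.21 in 0CUG strain 2. The troponin C gene pat-10 averaged 1159 ± 65 in 123CUG strain 1, 795 ± 74.2 in 0CUG strain 1 and 646 ± 63.5 in 0CUG strain 2. mlc-1 and mlc-2, regulatory light chains, and act-1 and act-4, actins, were also among the 19, but each pair is nearly identical in sequence and the counting could have split their reads. The call of act-1 against 0CUG strain 1 was lost without replicate 2 of 123CUG strain 1 or replicate 1 or 2 of 0CUG strain 1 (adjusted p = 0.0907, 0.0539 and 0.086). Other large sarcomere genes did not pass against both: unc-22, encoding the giant kinase twitchin, had log2 fold changes of 0.13 and -0.46 (adjusted p = 0.67 and 0.128; 0.047 against 0CUG strain 2 without its replicate 1), and paramyosin, unc-15, had -0.02 and 0.59, called against 0CUG strain 2 only.

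The sharpest rises on the list were in genes of the muscle membrane. sgca-1, which encodes the alpha-sarcoglycan of the dystrophin complex, had 32.3, 37.8 and 37.7 CPM in 123CUG strain 1, against 4.28, 5.92 and 5.09 in 0CUG strain 1 and 2.86, 6.22 and 5.8 in 0CUG strain 2. That is 7.12-fold and 7.38-fold (log2 fold changes of 2.83 ± 0.224 and 2.88 ± 0.228, adjusted p = 7.2e-10 and 1.17e-09); sgca-1 overlaps bgal-2 on the opposite strand, and whether counting used strand is not given in the sources used here. unc-105, a muscle degenerin channel, had 17.6, 14.7 and 15.6 CPM in 123CUG strain 1, 1.28, 2.4 and 2.55 in 0CUG strain 1 and 1.35, 2.95 and 1.66 in 0CUG strain 2, or 7.79-fold and 8.18-fold. Outside the list, the muscle transcription factor gene unc-120, named after its values were seen, rose by log2 fold changes of 1.74 and 1.92 (6.26, 7.31 and 8.28 CPM in 123CUG strain 1, 1.31 to 2.73 in 0CUG strain 1 and 1.04 to 2.83 in 0CUG strain 2). The myosin heavy chain gene myo-6 had 16.9, 14.4 and 14.2 CPM in 123CUG strain 1, 0.812, 0.954 and 0.704 in 0CUG strain 1 and 2.6, 1.01 and 1.16 in 0CUG strain 2 (log2 fold changes of 4.21 and 3.27).

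Summed over 5 body wall muscle markers, the level was 838 to 969 CPM in 123CUG strain 1, 666 to 768 in 0CUG strain 1 and 552 to 700 in 0CUG strain 2, with 2 of 5 markers called higher against both. These 2, unc-54 and unc-27, are themselves among the sarcomere rises, so the sum is not a separate measure of muscle. In RNA from whole animals, where CPM is a share of all reads, more RNA per muscle cell and less RNA from other tissues cannot be told apart. Markers of pharyngeal muscle were at 0.573 to 1.94 CPM in sum in 123CUG strain 1, 2.37 to 4.59 in 0CUG strain 1 and 1.93 to 2.53 in 0CUG strain 2.

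**Figure D2:**
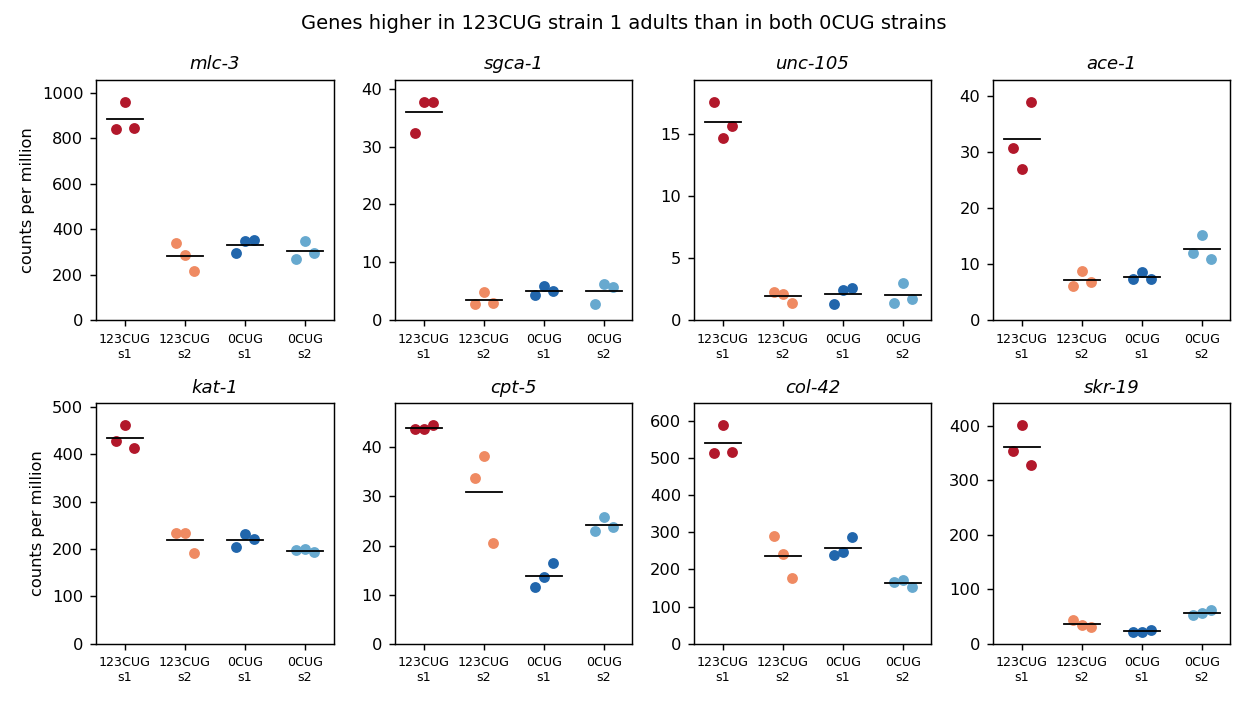
CPM (library-scaled read counts) (vertical axes, linear, from 0) of 8 genes that rose in 123CUG strain 1 adults against both 0CUG strains. Each point is 1 of 3 libraries of a strain and the bar is their mean; 123CUG strain 2 lies at the level of the controls for mlc-3, sgca-1, unc-105 and kat-1, while for cpt-5 most of its libraries lie between 123CUG strain 1 and the controls.

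At the neuromuscular junction 2 of 34 genes tested rose (5.88%, against 3.30% of all genes) and 0 fell in edgeR. DESeq2 called 0 lower, and 1 was lower at an unadjusted p under 0.05. ace-1, an acetylcholinesterase, had 30.8, 26.9 and 39 CPM in 123CUG strain 1, 7.28, 8.65 and 7.31 in 0CUG strain 1 and 11.9, 15.2 and 10.9 in 0CUG strain 2, with log2 fold changes of 2.08 ± 0.181 and 1.37 ± 0.177. unc-50, needed for nicotinic acetylcholine receptors to reach the muscle surface, rose by 0.70 and 0.59 (107, 98.6 and 100 CPM in 123CUG strain 1, 56.5 to 69.3 in 0CUG strain 1 and 64.6 to 75.8 in 0CUG strain 2). Among 91 neuropeptide genes 4 rose, a share of 4.4% that is near the 3.30% of all genes tested, with nlp-50 at log2 fold changes of 2.14 and 1.16 and nlp-24 at 0.39 and 1.05; the call of nlp-24 against 0CUG strain 1 was lost without replicate 2 of 123CUG strain 1, when the count was 2, or without replicate 1 or 2 of 0CUG strain 1 (adjusted p = 0.121, 0.0567 and 0.0914). None of the 91 fell in edgeR or DESeq2, with 2 lower at an unadjusted p under 0.05 and 2 lower in edgeR without replicate 1 of 123CUG strain 1. nlp-50 lies within agr-1, the agrin gene, on the other strand. agr-1, named after its values were seen, rose by 3.54 and 2.58, and reads of the 2 genes cannot be told apart without strand. Of 30 genes of synaptic release, 0 were called in the same direction against both controls by edgeR or DESeq2, with 1 lower at an unadjusted p under 0.05. Neuronal markers summed to 223 to 241 CPM in 123CUG strain 1, 184 to 191 in 0CUG strain 1 and 214 to 256 in 0CUG strain 2.

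Cuticle collagens were the other list with many members higher against both controls. Of 95 collagen genes tested 19 rose (20%, against 3.30% of all genes), and 0 fell in edgeR, in DESeq2 and at an unadjusted p under 0.05. The other 76 were not called in the same direction against both. Of the 95, 70 had estimates above 0 against both, as had 3633 of all 13784 genes tested. The median log2 fold change was 0.51 over 0CUG strain 1 and 0.82 over 0CUG strain 2. col-42 had 514, 588 and 515 CPM in 123CUG strain 1, against 238, 248 and 288 in 0CUG strain 1 and 165, 171 and 154 in 0CUG strain 2 (log2 fold changes of 1.09 ± 0.0965 and 1.74 ± 0.0985, adjusted p = 2.53e-09 and 1.14e-12). All libraries of the repeat strain lay above all control libraries. col-124 rose by 1.09 and 1.62 and col-98 by 0.87 and 1.56. The adult-specific collagen gene col-19, also among the 19, averaged 1156 ± 136 CPM in 123CUG strain 1, 733 ± 101 in 0CUG strain 1 and 441 ± 23.1 in 0CUG strain 2. Collagen genes share long stretches of repeats, so single members are less certain than the group.

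Collagens are made in the hypodermis, whose 4 markers, col-19 among them, summed to 1036 to 1304 CPM in 123CUG strain 1, 664 to 849 in 0CUG strain 1 and 424 to 468 in 0CUG strain 2; wrt-2 had no reads in the 9 libraries. Nearly all of that sum was col-19, which is itself 1 of the collagens that rose. dpy-7, the other marker with enough reads to test, had log2 fold changes of -0.50 and 1.60 and passed neither threshold (edgeR adjusted p = 0.805 and 0.477). The part of these levels in the collagen counts was not tested. Hedgehog-related genes, secreted proteins of the hypodermis in the worm, had 5 of 24 members higher in edgeR (20.8%, against 3.30% of all genes). In edgeR, in DESeq2 and at an unadjusted p under 0.05, 0 were lower. Their medians differed in sign, 0.62 over 0CUG strain 1 and -0.03 over 0CUG strain 2. grd-3 had 74.7, 85.9 and 82 CPM in 123CUG strain 1, 41.1, 33.8 and 48 in 0CUG strain 1 and 23.7, 33.3 and 27.7 in 0CUG strain 2 (log2 fold changes of 1.01 and 1.54). grd-5 rose by 0.56 and 1.03 and grl-4 by 0.69 and 0.92; without replicate 2 of 123CUG strain 1 the count on the list was 3, and grl-4 missed the threshold against 0CUG strain 1 (adjusted p = 0.064).

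The 6 carnitine palmitoyltransferase genes did not move together. cpt-5 had 43.7, 43.8 and 44.5 CPM in 123CUG strain 1, against 11.5, 13.6 and 16.5 in 0CUG strain 1 and 23, 25.8 and 23.8 in 0CUG strain 2. It rose 3.22-fold and 1.85-fold (log2 fold changes of 1.69 ± 0.142 and 0.89 ± 0.139, adjusted p = 1.05e-09 and 3.74e-05), with no overlap between strains. cpt-1 had 129, 123 and 120 CPM in 123CUG strain 1, 162, 166 and 155 in 0CUG strain 1 and 170, 159 and 161 in 0CUG strain 2. It fell, with log2 fold changes of -0.36 and -0.38 (adjusted p = 0.00149 and 0.00191), again without overlap; alkb-7 overlaps it on the same strand.

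The other members passed against 1 control at most. cpt-2 had log2 fold changes of 0.15 and -0.01 (adjusted p = 0.264 and 0.974), with 134 to 141 CPM in 123CUG strain 1, 118 to 143 in 0CUG strain 1 and 130 to 161 in 0CUG strain 2. cpt-6 was 0.55 above 0CUG strain 1 (adjusted p = 0.0359), a call lost without replicate 2 or 3 of 123CUG strain 1 or without replicate 1 or 3 of 0CUG strain 1 (adjusted p = 0.0763, 0.116, 0.16 and 0.0927), and 0.10 above 0CUG strain 2 (adjusted p = 0.795). cpt-3 and cpt-4 were under 2 CPM in all 9 libraries. Their log2 fold changes were -1.49 and -0.48 for cpt-3 and 1.28 and -0.23 for cpt-4, none past the threshold; cpt-3 passed against 0CUG strain 1 without replicate 2 of 123CUG strain 1 (adjusted p = 0.04) or without replicate 1 of 0CUG strain 2 (adjusted p = 0.0364).

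Downstream of these enzymes, 2 of 28 genes of mitochondrial fatty acid oxidation rose against both controls (7.14%, against 3.30% of all genes). In edgeR, in DESeq2 and at an unadjusted p under 0.05, 0 fell. Both rises were in thiolases. kat-1, a ketoacyl-CoA thiolase, had 427, 461 and 412 CPM in 123CUG strain 1, 205, 231 and 220 in 0CUG strain 1 and 198, 199 and 193 in 0CUG strain 2 (2.01-fold and 2.24-fold, log2 fold changes of 1.01 ± 0.0884 and 1.17 ± 0.0888). acaa-2 rose by 0.68 and 0.39. acs-2, an acyl-CoA synthetase on the same list, went opposite ways, -0.62 against 0CUG strain 1 and 1.11 against 0CUG strain 2. In the peroxisome acox-1.2, an acyl-CoA oxidase, had 72.7, 71.9 and 55.8 CPM in 123CUG strain 1, 11.9, 15.3 and 15.4 in 0CUG strain 1 and 19.4, 30 and 24.9 in 0CUG strain 2 (log2 fold changes of 2.26 and 1.46). Of 27 peroxisomal genes it was the 1 that rose against both in edgeR, a share of 3.7% that is near the background of 3.30%. There were 2 in DESeq2 and 2 at an unadjusted p under 0.05. A further 8 were called in opposite directions, against 4.53% of all genes. Without replicate 3 of 123CUG strain 1 or replicate 2 of 0CUG strain 2 the count of rises was 2.

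Nuclear genes of the respiratory chain and ATP synthase had 11 of 53 members higher (20.8%, against 3.30% of all genes) and 0 lower in edgeR. The counts were 13 and 0 in DESeq2 and 17 and 0 at an unadjusted p under 0.05. Steps were small, with medians of 0.10 and 0.26. gas-1, a complex I subunit, had 102, 102 and 92.1 CPM in 123CUG strain 1, 49.4, 47.8 and 48.2 in 0CUG strain 1 and 73.7, 88.2 and 70.8 in 0CUG strain 2 (log2 fold changes of 1.05 and 0.37). cox-7C rose by 0.68 and 0.38 and atp-3 by 0.43 and 0.36. The count depended on single libraries: it was 4, 3 and 7 without replicates 1, 2 and 3 of 123CUG strain 1, and 6, 6 and 2 without replicates 1, 2 and 3 of 0CUG strain 2. Without the last of these gas-1, cox-7C and atp-3 missed the threshold against 0CUG strain 2 (adjusted p = 0.0657, 0.0555 and 0.0671), and atp-3 also did without replicate 1 or 2 of 123CUG strain 1 (adjusted p = 0.052 and 0.081). Among 12 protein genes of mitochondrial DNA, 1 fell (8.33%, against 1.68% of all genes). It was MTCE.21, with log2 fold changes of -0.37 and -0.37, a call lost without replicate 2 of 123CUG strain 1 at an adjusted p of 0.056. The other 11 were not called the same way against both. Of the 12 genes 8 had estimates above 0 against both, as had 3633 of all 13784 genes tested. The medians were 0.15 and 0.16, against 0.05 and 0.01 for all genes tested. In edgeR 0 of the 12 rose, against 1 in DESeq2, 2 at an unadjusted p under 0.05 and 2 without replicate 2 of 0CUG strain 1. In 20 genes of mitochondrial dynamics and mitophagy, 0 were called the same way against both in edgeR and DESeq2, with 1 higher at an unadjusted p under 0.05. fzo-1, the mitofusin, was at -0.26 and 0.04, called lower than 0CUG strain 1 only (adjusted p = 0.0247; between 0.0557 and 0.0771 without replicate 1 or 2 of 123CUG strain 1 or any 1 replicate of 0CUG strain 1), and drp-1, the fission dynamin, at -0.11 and 0.10. Of 13 genes of the mitochondrial unfolded protein response only timm-23 rose (7.69%, against 3.30% of all genes), by 0.34 and 0.43. Its call against 0CUG strain 1 was lost without replicate 2 of 123CUG strain 1 or replicate 1 of 0CUG strain 1 (adjusted p = 0.0517 and 0.0574). The chaperone gene hsp-6 was at 0.12 and 0.69, called against 0CUG strain 2 only.

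The fatty acid desaturases that make oleic and palmitoleic acid fell together. fat-5 had 30.4, 37.9 and 30.3 CPM in 123CUG strain 1, 54, 58.4 and 69.2 in 0CUG strain 1 and 149, 174 and 159 in 0CUG strain 2. fat-6 had 356, 380 and 338 in 123CUG strain 1, 500, 572 and 525 in 0CUG strain 1 and 901, 965 and 879 in 0CUG strain 2. fat-7 had 16.7, 13.6 and 12.3 in 123CUG strain 1, 26.4, 26.1 and 26.7 in 0CUG strain 1 and 66, 74.8 and 68.8 in 0CUG strain 2. In all 3 genes every library of the repeat strain was below every control library, and the fall was smaller against 0CUG strain 1 (log2 fold changes of -0.86 ± 0.11, -0.55 ± 0.0951 and -0.88 ± 0.127) than against 0CUG strain 2 (-2.27 ± 0.113, -1.33 ± 0.0964 and -2.28 ± 0.13), the controls themselves differing by -1.41, -0.78 and -1.40. fat-6 and fat-7 are near-identical copies whose reads could have been split between them, and fat-5 overlaps W06D12.8 and twk-42 on the opposite strand.

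nhr-80, a nuclear receptor that promotes expression of these desaturases, moved the other way. It had 53.2, 60.8 and 45.5 CPM in 123CUG strain 1, 7, 10.5 and 10.2 in 0CUG strain 1 and 19.3, 21.9 and 18.6 in 0CUG strain 2 (5.83-fold and 2.71-fold, log2 fold changes of 2.54 ± 0.162 and 1.44 ± 0.156). In all, 1 of 24 genes of fatty acid synthesis and desaturation rose (4.17%, against 3.30% of all genes) and 3 fell (12.5%, against 1.68%). A further 8 were called in opposite directions, against 4.53% of all genes. Among the last was the polyunsaturated fatty acid desaturase gene fat-3, at 1.03 and -0.86. nhr-49, a partner receptor, was at 0.17 and -0.22, past neither threshold. atgl-1, the adipose triglyceride lipase, was at -0.36 and -0.29. It was the only 1 of 20 genes of lipases and lipid droplets called in the same direction against both (5%, against 1.68% of all genes). That call was lost without replicate 1 or 2 of 123CUG strain 1 or replicate 2 of 0CUG strain 2 (adjusted p = 0.0935, 0.0952 and 0.136).

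Yolk genes lay between the controls. The 6 vitellogenin genes summed to 121903 to 136020 CPM in 123CUG strain 1, 64103 to 79166 in 0CUG strain 1 and 154347 to 186391 in 0CUG strain 2. vit-2, named after its values were seen, had 37090, 39722 and 40839 CPM in 123CUG strain 1, 24794, 23152 and 20826 in 0CUG strain 1 and 49992, 59338 and 59037 in 0CUG strain 2, and 3 of the 6 genes, vit-2, vit-5 and vit-6, were called in opposite directions; the call of vit-6 against 0CUG strain 2 was lost without replicate 1 of 123CUG strain 1 or replicate 3 of 0CUG strain 2 (adjusted p = 0.0634 and 0.0626). vit-1 alone was above both, with 8718, 8755 and 9243 CPM in 123CUG strain 1, 4134, 3664 and 3818 in 0CUG strain 1 and 6016, 6965 and 6714 in 0CUG strain 2 (log2 fold changes of 1.22 and 0.46). vit-1 and vit-2 are close in sequence, so that difference may rest on how shared reads were assigned. The same placing between the controls was seen in cathepsins and lysosomal proteases, where 9 of 23 genes were called in opposite directions. Of all genes tested, 4.53% were called in opposite directions. cpr-5, a cathepsin B-like gene, was the 1 of the 23 that rose (1.50 and 0.60), a share of 4.35% near the 3.30% of all genes. Yolk and many of these proteases are made in the intestine, of which 4 markers other than vitellogenins summed to 3568 to 3898 CPM in 123CUG strain 1, 1572 to 1693 in 0CUG strain 1 and 3589 to 4508 in 0CUG strain 2. Their part in these levels was not tested.

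**Figure D3:**
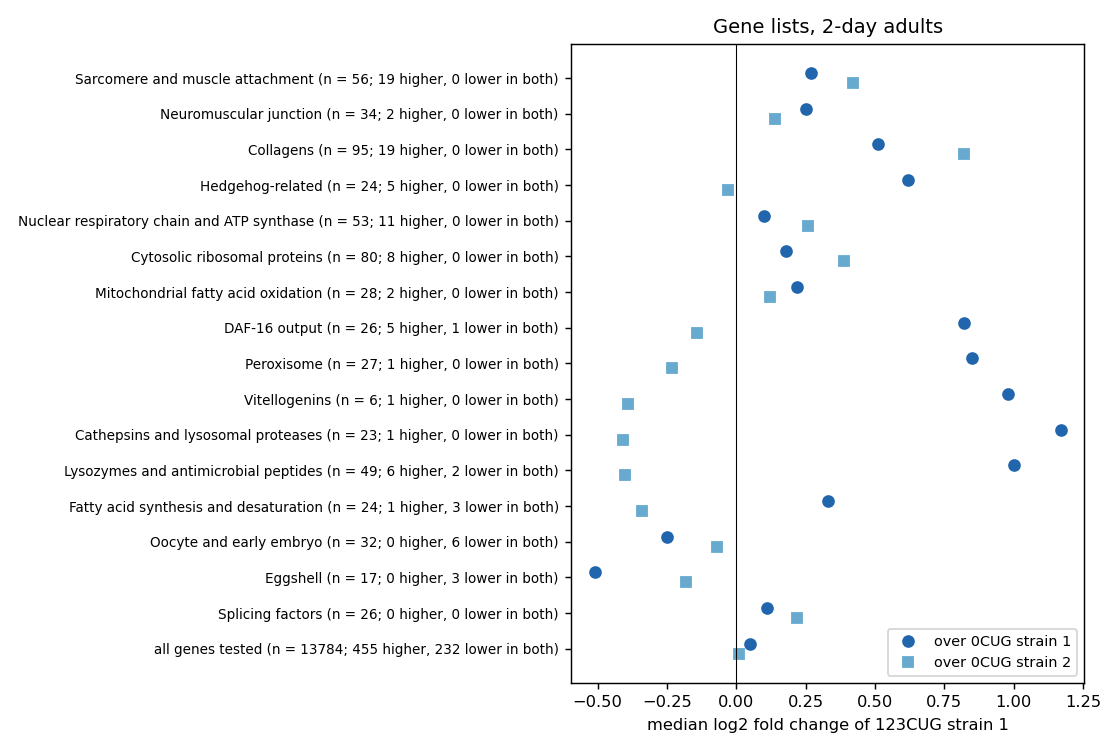
Median log2 fold change of 123CUG strain 1 over 0CUG strain 1 (circles) and over 0CUG strain 2 (squares) for 16 gene lists and for all genes tested, with the number of genes tested and the numbers higher and lower against both controls beside each name. For sarcomere genes and collagens both medians lie to the right of those of all genes, for oocyte and eggshell genes both lie to the left, and for vitellogenins, cathepsins, peroxisomal genes and lysozymes they lie on opposite sides of 0.

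Genes of the oocyte and its shell were on the side of falls, by small amounts. Of 32 genes of the oocyte and early embryo 6 fell (18.8%, against 1.68% of all genes) and 0 rose (edgeR and DESeq2; 0 at an unadjusted p under 0.05). The medians were -0.25 over 0CUG strain 1 and -0.07 over 0CUG strain 2. puf-5, an RNA-binding regulator of oocyte messages, had 230, 215 and 235 CPM in 123CUG strain 1, 402, 356 and 391 in 0CUG strain 1 and 360, 284 and 311 in 0CUG strain 2 (log2 fold changes of -0.74 ± 0.0963 and -0.46 ± 0.0961). nos-2, a Nanos-family gene, fell with log2 fold changes of -0.55 and -0.47. lin-41, a regulator of oocyte growth, was at -0.74 and -0.34. Of 17 eggshell genes 3 fell in edgeR (17.6%, against 1.68% of all genes). In edgeR, in DESeq2 and at an unadjusted p under 0.05, 0 rose. The falls were those of gna-2, which makes a precursor of chitin, at -0.97 and -0.41, and the chondroitin proteoglycan genes cpg-3 and cpg-1 at -0.95 and -0.40 and at -0.64 and -0.33.

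These germline counts rested on single libraries. Without replicates 1 and 2 of 123CUG strain 1 in turn, the oocyte list had 3 and 1 falls and the eggshell list 0 and 0. The eggshell list had 1, 1 and 0 falls without replicates 1, 2 and 3 of 0CUG strain 2. Among nos-2, lin-41, gna-2, cpg-3 and cpg-1 the calls lost were those against 0CUG strain 2. That of nos-2 was lost without replicate 2 of 123CUG strain 1 (adjusted p = 0.0607). Those of lin-41, gna-2, cpg-3 and cpg-1 were lost without its replicate 1 (adjusted p = 0.191, 0.137, 0.121 and 0.185) or 2 (0.197, 0.0964, 0.18 and 0.159) and without replicate 3 of 0CUG strain 2 (0.144, 0.0883, 0.164 and 0.164). Leaving out replicate 1 of 0CUG strain 2 ended the calls of lin-41, gna-2 and cpg-3, replicate 2 of 0CUG strain 2 those of cpg-3 and cpg-1, and replicate 3 of 0CUG strain 1 that of cpg-3. Summed oocyte markers were at 1029 to 1229 CPM in 123CUG strain 1, 1540 to 1721 in 0CUG strain 1 and 1262 to 1424 in 0CUG strain 2. The markers include oma-2 and puf-5, themselves among the falls of the oocyte list, so the sum is not a separate measure of oocytes. The part of oocyte amount in these falls was not tested.

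**Figure D4:**
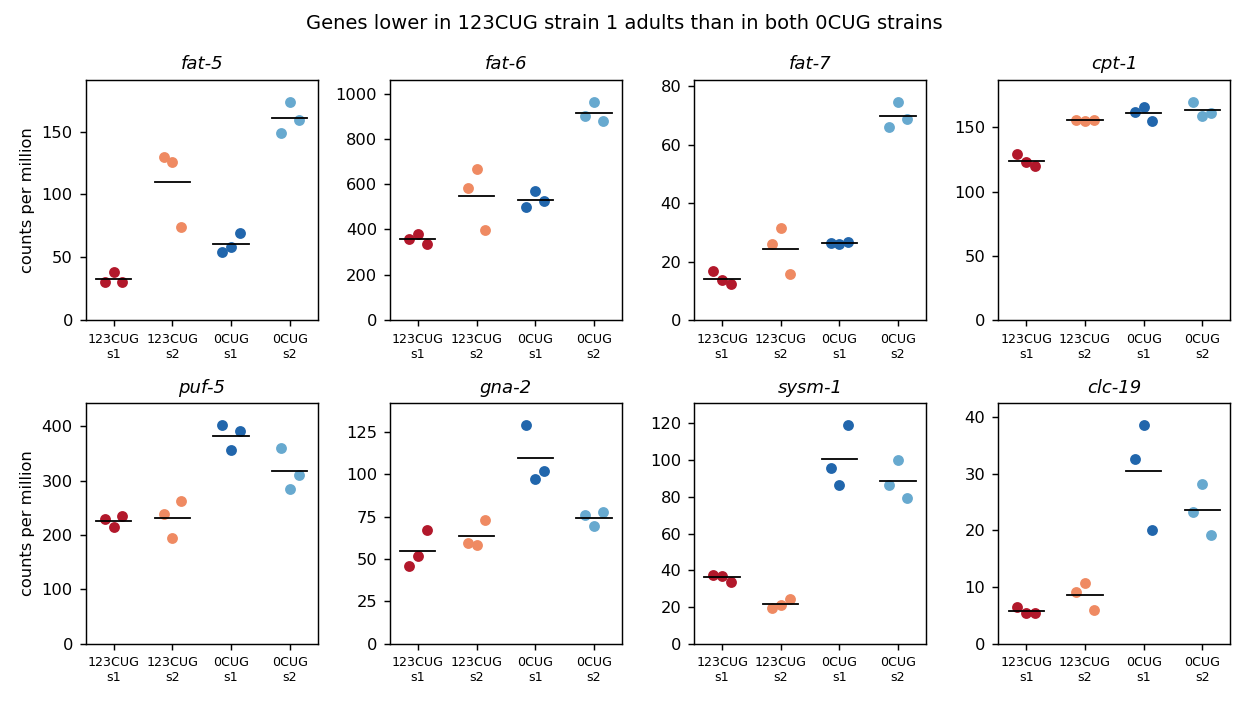
CPM (library-scaled read counts) (vertical axes, linear, from 0) of 8 genes that fell in 123CUG strain 1 adults against both 0CUG strains. Each point is 1 of 3 libraries of a strain and the bar is their mean; for fat-5, fat-6 and fat-7 the 0CUG strains themselves differ, and for puf-5, gna-2, sysm-1 and clc-19 the libraries of 123CUG strain 2 lie mostly below the controls as well.

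Defence genes changed in both directions. Of 49 lysozyme and antimicrobial peptide genes 6 rose (12.2%, against 3.30% of all genes) and 2 fell (4.08%, against 1.68%). A further 12 were called in opposite directions, against 4.53% of all genes. The falls were those of abf-5 and lys-3, named after their values were seen and low in every strain. abf-5 averaged 0 CPM in 123CUG strain 1, 0.309 in 0CUG strain 1 and 0.367 in 0CUG strain 2. lys-3 averaged 0.751, 3.04 and 4.4 CPM in the same order. The count of falls was 1 without any 1 of replicates 1 to 3 of 123CUG strain 1, replicate 1 of 0CUG strain 1 or replicate 3 of 0CUG strain 2. spp-5, a saposin-like antimicrobial gene, had 1649, 1708 and 1513 CPM in 123CUG strain 1, 680, 660 and 829 in 0CUG strain 1 and 731, 850 and 813 in 0CUG strain 2 (log2 fold changes of 1.19 and 1.05). spp-24 rose by 1.42 and 1.10 and cnc-3, a caenacin, by 1.04 and 1.32. Of 96 C-type lectin genes, secreted sugar-binding proteins, 6 rose (6.25%, against 3.30% of all genes) and 3 fell (3.12%, against 1.68%). The count of falls was 5 in DESeq2 and 6 in edgeR without replicate 1 of 0CUG strain 2. clec-10 rose by 2.06 and 0.92, and clec-48 fell, with log2 fold changes of -1.54 and -1.58. clec-66 was at 0.67 and 0.41, and missed the threshold against 0CUG strain 2 without replicate 2 of 123CUG strain 1 (adjusted p = 0.0914). Of 22 genes of the p38 pathway and infection response 1 rose (4.55%, near the 3.30% of all genes) and 2 fell (9.09%, against 1.68%). irg-2, an infection response gene, rose by 1.06 and 1.04. sysm-1, a p38 target, had 37.7, 36.8 and 33.8 CPM in 123CUG strain 1, 95.8, 86.7 and 119 in 0CUG strain 1 and 86.3, 100 and 79.3 in 0CUG strain 2 (log2 fold changes of -1.46 and -1.27). atf-7, a transcription factor under p38, was at -0.23 and -0.26. Its calls were lost without any 1 of 7 of the 9 libraries, replicates 1 to 3 of 123CUG strain 1, 1 and 2 of 0CUG strain 1 and 2 and 3 of 0CUG strain 2, with adjusted p between 0.0505 and 0.178.

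Of 148 genes for cytochromes P450, UDP-glucuronosyltransferases and glutathione transferases, the enzymes of detoxification, 10 rose (6.76%, against 3.30% of all genes) and 2 fell (1.35%, near the 1.68% of all genes). The count of rises was 6 without replicate 1 of 123CUG strain 1 or replicate 1 of 0CUG strain 2, and that of falls 1 without replicate 1 of 123CUG strain 1 or replicate 1 or 2 of 0CUG strain 1. cyp-13A2 had 84.5, 87 and 68.1 CPM in 123CUG strain 1, 4.22, 8.01 and 6.37 in 0CUG strain 1 and 14.8, 15.6 and 12.2 in 0CUG strain 2, which is 13-fold and 5.72-fold. cyp-35A5 rose by log2 fold changes of 2.01 and 1.04 and ugt-53 by 0.98 and 1.16. Of 26 genes of DAF-16 output, the longevity and stress programme, 5 rose (19.2%, against 3.30% of all genes) and 1 fell (3.85%, against 1.68%). A further 7 were called in opposite directions, against 4.53% of all genes. The medians of the list differed in sign, 0.82 over 0CUG strain 1 and -0.14 over 0CUG strain 2. ftn-1, a ferritin, had 14, 11.8 and 12.2 CPM in 123CUG strain 1, 0.437, 0.932 and 0.871 in 0CUG strain 1 and 1.98, 3.96 and 6.42 in 0CUG strain 2 (log2 fold changes of 4.09 and 1.65). The glycolytic genes gpd-3 and gpd-2, which lie side by side and are close in sequence, rose by 0.99 and 0.55 and by 0.80 and 0.50. ctl-3, a catalase, was at -0.68 and -1.26, a call lost against 0CUG strain 1 without replicate 3 of 123CUG strain 1 or replicate 3 of 0CUG strain 1 (adjusted p = 0.0643 and 0.124).

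Of 80 cytosolic ribosomal protein genes, 64 were higher when compared with 0CUG strain 2 alone, as were 8.97% of all genes tested. Against 0CUG strain 1 alone 9 were higher and 3 lower, where 19.8% and 11.2% of all genes tested were. Against both controls 8 rose (10%, against 3.30% of all genes) and 0 fell in edgeR, 6 and 0 in DESeq2 and 23 and 0 at an unadjusted p under 0.05. rps-21 rose by 0.68 and 0.84, rpl-31 by 0.42 and 0.44 and rps-26 by 0.37 and 0.43. That count swung with single libraries, to 22 without replicate 3 of 0CUG strain 1, 2 without its replicate 2, 4 without its replicate 1, 3, 2 and 4 without replicates 1, 2 and 3 of 123CUG strain 1 and 5 without replicate 2 of 0CUG strain 2. rps-26 missed the threshold against 0CUG strain 1 in 3 of these (adjusted p between 0.0616 and 0.0777). Of 28 autophagy genes 1 rose (3.57%, near the 3.30% of all genes) and 2 fell (7.14%, against 1.68%), with atg-16.2 at -0.72 and -0.67. epg-2, at 1.37 and 0.64, and epg-8, at -0.51 and -0.32, missed the threshold against 0CUG strain 2 without replicate 1 or 3 of 123CUG strain 1 (adjusted p = 0.106 and 0.0566 for epg-2, 0.0577 and 0.0719 for epg-8). epg-2 also did without replicate 1 or 2 of 0CUG strain 2 (0.0948 and 0.0652), and epg-8 without replicate 2 of 123CUG strain 1 or 3 of 0CUG strain 2 (0.0611 and 0.0926). sid-1, the importer of double-stranded RNA, was at -0.47 and -0.32. It was the only 1 of 49 genes of RNA interference and nonsense-mediated decay called in the same direction against both (2.04%, near the 1.68% of all genes). Its adjusted p against 0CUG strain 2 was 0.0484 in edgeR and 0.0526 in DESeq2. The edgeR call was lost without any 1 of 7 libraries (adjusted p between 0.0521 and 0.19). These were replicates 1 to 3 of 123CUG strain 1, 1 and 3 of 0CUG strain 1 and 1 and 2 of 0CUG strain 2. hsp-25, a small heat shock gene, was at 1.09 and 0.44. It was the 1 of 19 cytosolic chaperone genes called (5.26%, against 3.30% of all genes). The call was lost against 0CUG strain 2 without replicate 1 of that strain (adjusted p = 0.058). Neither the endoplasmic reticulum stress genes (16 tested) nor the sperm genes (29 tested) had a member called the same way against both controls in edgeR, in DESeq2 or at an unadjusted p under 0.05; without replicate 3 of 0CUG strain 1 1 of the 16 was lower. The same held for 4 pharyngeal muscle genes in edgeR and DESeq2, with 1 lower at an unadjusted p under 0.05.

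Most of the agreeing genes, 550 of 687, were on none of the 34 lists. Ranked among named protein-coding genes whose libraries did not overlap and whose higher strain averaged 5 CPM or more, the 10 with the largest rises were fbxa-222, srx-50, che-11, moa-1, srlf-2, myo-6, unc-105, dhs-26, sgca-1 and skr-19. fbxa-222, an F-box gene, had 9.16, 10.9 and 17.2 CPM in 123CUG strain 1 and no reads in any library of 123CUG strain 2, 0CUG strain 1 or 0CUG strain 2. Against a floor of 3 reads over each group of 3 libraries it was at least 442-fold higher than in 0CUG strain 1 and at least 322-fold higher than in 0CUG strain 2. srx-50, a chemoreceptor gene, had 8.74, 10.3 and 7.14 CPM and likewise no reads in the other adults (at least 311-fold and at least 226-fold higher). Named after their values were seen, F28A10.1 was of the same kind, with 34.6, 32.7 and 30.9 CPM in 123CUG strain 1 and no reads in the other adults, and ZK218.7 averaged 7.58 CPM with no reads in the 0CUG adults.

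Other large rises started from a low level in the controls. che-11, a component of the transport system in cilia, had 10.1, 11.4 and 14.3 CPM in 123CUG strain 1, 0.0937, 0.0222 and 0 in 0CUG strain 1 and 0, 0.202 and 0.31 in 0CUG strain 2. F35H8.1, named after its values were seen, had 373, 350 and 276 in 123CUG strain 1, 0, 0.177 and 0 in 0CUG strain 1 and 0.586, 0.404 and 0.696 in 0CUG strain 2. C56E10.3, chosen in the same way, had 109, 108 and 102 in 123CUG strain 1, 0.406, 0.688 and 0.704 in 0CUG strain 1 and 1.28, 3.07 and 1.59 in 0CUG strain 2. Of 19 Skp1-related genes, which encode parts of ubiquitin ligases, 2 rose in edgeR (10.5%, against 3.30% of all genes), and 4 without replicate 3 of 0CUG strain 2. In edgeR, in DESeq2 and at an unadjusted p under 0.05, 0 fell. The 2 called in edgeR, the neighbours skr-19 and skr-20, rose 16.1-fold and 6.47-fold and 12.4-fold and 6.28-fold. skr-19 had 353, 401 and 328 CPM in 123CUG strain 1, 22, 21.8 and 24.3 in 0CUG strain 1 and 52.4, 56.7 and 61.1 in 0CUG strain 2. dhs-26, a short-chain dehydrogenase, had 36.5, 25.3 and 23.2 in 123CUG strain 1, 3.06, 3.62 and 4.59 in 0CUG strain 1 and 2.2, 4.16 and 4.14 in 0CUG strain 2.

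By the same rule, with at least 5 CPM on average in each 0CUG strain, the 10 largest falls were kreg-1, clc-19, fbxc-43, tsp-1, drd-10, clec-48, tpk-1, adh-1, scrm-4 and sysm-1. clc-19, a claudin-like membrane protein, had 6.41, 5.47 and 5.46 CPM in 123CUG strain 1, 32.6, 38.5 and 20 in 0CUG strain 1 and 23.2, 28.2 and 19.1 in 0CUG strain 2 (log2 fold changes of -2.38 ± 0.211 and -2.0 ± 0.211). kreg-1 fell, with log2 fold changes of -2.88 and -3.58 and 0.916, 1.18 and 0.349 CPM in 123CUG strain 1, 7.18, 8.52 and 2.18 in 0CUG strain 1 and 13.9, 9.46 and 5.92 in 0CUG strain 2. Log2 fold changes were -1.72 and -2.61 for tsp-1, a tetraspanin, -1.34 and -2.52 for adh-1, an alcohol dehydrogenase, and -1.51 and -1.36 for tpk-1, thiamine pyrophosphokinase. They were -1.84 and -2.64 for fbxc-43, -2.36 and -1.55 for drd-10 and -1.30 and -2.23 for scrm-4. scrm-4 and drd-10 each overlap a gene on the opposite strand, kpc-1 and anr-21.

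Some agreeing genes had neighbours that changed the same way (coordinates of the deposited tables, WBcel235). Another agreeing rise lay within 10 kb of 112 of the 455 rises (24.6%), as it did for 10.9% of all genes tested. Another agreeing fall lay within 10 kb of 31 of the 232 falls (13.4%), against 6.12% of all genes tested. skr-20 (chromosome X, 13222917 to 13223546) and skr-19 (X, 13223639 to 13224708) are such a pair. On chromosome II, Y54G11A.1 (14256350 to 14269153) and Y54G11A.3 (14276651 to 14283977), both named after their values were seen, lie in the stretch that also holds ctl-3 (14307854 to 14310779). Y54G11A.3 had 0.954, 0.708 and 0.603 CPM in 123CUG strain 1, 89, 90.8 and 104 in 0CUG strain 1 and 69.7, 58.3 and 62.4 in 0CUG strain 2 (log2 fold changes of -6.96 and -6.38). Y54G11A.1 had 3.32, 2.24 and 1.59 in 123CUG strain 1, 57.8, 58.1 and 58.7 in 0CUG strain 1 and 46.4, 37.5 and 38.6 in 0CUG strain 2. By chromosome, rises made up 2.39% of the genes tested on III and 4.33% of those on X, the extremes of the 6 nuclear chromosomes.

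The second repeat strain shows which of these levels were shared. 123CUG strain 1 differed from 123CUG strain 2 in 487 genes that were higher (3.46%) and 272 that were lower (1.93%), 5.39% of 14070 tested over 12 libraries. Of the 455 rises over both 0CUG strains, 278 were also higher than in 123CUG strain 2 and 0 were lower (edgeR). Of the 232 falls, 70 were also lower than in 123CUG strain 2 and 1 was higher, sysm-1 (19.7, 20.9 and 24.6 CPM in 123CUG strain 2). This contrast uses the same 123CUG strain 1 libraries by which those genes were chosen, so the direction of these counts is partly fixed by the choice, as it is for the lists and genes below. Sarcomere genes were among those that differed between the repeat strains: 22 of 56 were higher and 1 lower in 123CUG strain 1 than in strain 2, with a median of 0.42. sgca-1 had 2.74, 4.92 and 2.87 CPM in 123CUG strain 2, mlc-3 had 340, 286 and 214 and unc-105 had 2.29, 2.13 and 1.38, all within or below the range of the 0CUG strains. Of the 95 collagens, 28 were higher and 0 lower than in 123CUG strain 2 (edgeR). nhr-80 had 13.3, 15.1 and 9.11 CPM in 123CUG strain 2, kat-1 had 234, 233 and 191, and fat-5 had 130, 126 and 74.2 (log2 fold changes between the repeat strains of 2.07, 0.96 and -1.76).

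For other genes the repeat strains did not differ past the threshold. dhs-26 had 22.6, 25.3 and 22.2 CPM in 123CUG strain 2 (log2 difference 0.26 ± 0.217, adjusted p = 0.584), acox-1.2 had 57.6, 64 and 35.7 (0.33 ± 0.188, adjusted p = 0.371) and spp-5 had 1737, 1583 and 1162 (0.10 ± 0.136, adjusted p = 0.764). The falls of puf-5 (239, 194 and 263; -0.05 ± 0.121, adjusted p = 0.888), clec-190 (28.1, 36.4 and 26.9; 0.25 ± 0.143, adjusted p = 0.367) and clc-19 (9.08, 10.7 and 5.9; -0.58 ± 0.24, adjusted p = 0.188) were of this kind too. cpt-5 had 33.8, 38.2 and 20.6 CPM in 123CUG strain 2 (0.50 ± 0.177, adjusted p = 0.123). The lowest of these was below every library of 0CUG strain 2 (23 to 25.8 CPM). Nor was cpt-5 called in 123CUG strain 2 against 0CUG strain 2 (edgeR adjusted p = 0.104). cpt-1, at 156, 155 and 156 CPM in 123CUG strain 2, was higher there than in 123CUG strain 1 (log2 difference -0.35 ± 0.086, adjusted p = 0.0188). 123CUG strain 2 was compared with the same 0CUG libraries, so its values are given side by side and not as a repeat of the test.

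Against the L4 stage, the effect of 123CUG strain 1 differed in the same direction relative to both 0CUG strains in 512 of 16903 genes (3.03%, 1.83% more positive and 1.20% more negative in adults), in a model of 18 libraries with a term for the difference. Of the 455 adult rises 96 were more positive in adults than in L4 and 12 less so. Of the 232 adult falls 73 were more negative in adults and 7 less so. The difference contains the same adult libraries by which these genes were chosen, so its direction is partly fixed by the choice. cpt-5 is of the first kind. At L4 it had 47, 67.1 and 48.9 CPM in 123CUG strain 1, 55.7, 71.1 and 74.5 in 0CUG strain 1 and 61.4 to 80.2 in 0CUG strain 2 (log2 fold changes of -0.24 and -0.38, adjusted p = 0.344 and 0.117), and the difference between the stages was 1.74 ± 0.209 and 1.30 ± 0.208 (adjusted p = 4.31e-06 and 0.000333). cpt-1 was at 0.18 and 0.36 in L4, past neither threshold, and the difference was -0.73 and -0.71 (adjusted p = 0.00657 and 0.0116). The desaturases were further below the controls at L4, by -2.73 and -3.29 for fat-5, -1.86 and -1.76 for fat-6 and -2.78 and -2.93 for fat-7. skr-19 and sgca-1 were above both controls at L4 too (3.05 and 2.91, and 2.27 and 2.06).

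In the authors' deposited tables of these 2 comparisons, 2616 genes were higher and 2348 lower against 0CUG strain 1 at an adjusted p under 0.05, and 1284 higher and 1563 lower against 0CUG strain 2. Genes higher in both of the authors' deposited tables numbered 486 and genes lower in both 234, of which 433 and 202 were also among the 455 and 232 found here.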

How the data were processed

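Whole-worm RNA was sequenced. Reads were aligned with HISAT2 to WBcel235 and compared with DESeq2, per the submitters' processing notes; no source used here gives the counting tool or the strandedness. The authors deposited raw read counts per gene for every library, beside their own log2 fold changes and adjusted p-values. The counts of 6 deposited tables were joined (284160 values present in more than 1 table were equal, 0 differed). The 494 unnamed loci, 0.0453 to 0.0643% of reads, were left out. Gene symbols came from Ensembl release 115 (23311 of 23632 identifiers matched).

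Counts were tested with edgeR 4.0.16 (quasi-likelihood F-test, TMM scaling, filterByExpr, Benjamini-Hochberg adjustment) in R 4.3.3, over 9 libraries with 1 term per strain, 12 libraries for the contrast of the repeat strains and 18 for the stages. Log2 fold changes are 123CUG strain 1 over the 0CUG strain, with edgeR's shrinkage by a prior count and SEs derived from the test. Levels are TMM-scaled CPM, means ± SD over 3 libraries. Total reads of 27726626 to 42123440 per library set the counting precision. Replicate pairs differed by more than sampling noise (median chi-square per gene 3.41 to 8.9), so each library counts as 1. The fit was also run on simulated counts in which both 0CUG strains had the same mean for every gene. That run cannot show how often calls agree falsely where the 0CUG strains differ.

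The text names mbl-1, myo-3, the cpt genes, the 10 largest rises and falls (at least 5 CPM in 123CUG strain 1 for rises and in each 0CUG strain for falls), up to 3 rises and 3 falls per list with at least 5 CPM, and the 3 largest agreeing rises and falls by the strain and stage contrasts. Besides the genes so marked in the text, lev-11, tnt-2, pat-10, mlc-1, mlc-2, act-1, act-4, unc-15, unc-22, col-19, acs-2, fzo-1, drp-1, hsp-6, fat-3, nhr-49, vit-5 and vit-6 were chosen after their values were seen. The comparison, the gene lists and these rules were chosen with earlier results of these data known. Alternatives were DESeq2 1.42.0, its size factors (RLE) in edgeR, no filter on low counts, 12 or 6 libraries per fit, a replicate block, and leaving out each library. Other deposited tables were not used here, and 1 gene and its list are not reported here.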

Additional observations from a re-analysis of the deposited data

Results flagged for a closer look

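The following results differed between stages or between the repeat strains by a test of the difference itself, in edgeR's quasi-likelihood fits; each gene was picked for its size, so the sizes are descriptions. The effect of 123CUG strain 1 relative to both 0CUG strains differed between 2-day adults and L4 larvae in 512 genes. Under the rule for named genes, which leaves out genes with a sequence name alone, genes under 5 CPM and genes whose libraries overlap, the largest stage differences among the agreeing rises were those of che-11, with log2 differences of 5.21 against 0CUG strain 1 and 3.40 against 0CUG strain 2, dhs-26, with 4.35 and 4.43, and col-124, with 2.71 and 2.76. che-11 was above both controls at L4 too (2.79 and 2.76), with means in 123CUG strain 1 of 15.2 CPM at L4 and 11.9 in adults. Its means in 0CUG strains 1 and 2 were 2.3 and 2.23 CPM at L4 and 0.0386 and 0.171 in adults. dhs-26 and col-124 were above both controls in adults and below both at L4 (log2 fold changes at L4 of -1.60 and -1.37 for dhs-26 and of -1.81 and -1.12 for col-124). Under that rule, among the falls they were those of kreg-1, with -3.98 and -5.0, clc-19, with -2.42 and -2.52, and tsp-1, with -2.29 and -3.46.

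Some genes of lipid handling described above also differed between stages, fat-6 narrowly so against 0CUG strain 2 (edgeR adjusted p = 0.049). The differences were 1.68 and 1.05 for fat-5, 1.12 and 0.45 for fat-6 and 1.72 and 0.68 for fat-7, each of which was lower than both controls at both stages. They were 2.81 and 1.66 for vit-1, which at L4 was below both controls (-1.77 and -1.17), 1.74 and 1.30 for cpt-5 and -0.73 and -0.71 for cpt-1. Against neither control did the stage difference pass for nhr-80 (edgeR adjusted p = 0.149 and 0.0624) or acaa-2 (0.0799 and 0.054). The same held for cpt-2 (0.211 and 0.648) and cpt-6 (0.405 and 0.892). For kat-1 it passed against 0CUG strain 2 only (0.0782 and 7.08e-05).

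The repeat strains differed from each other in 759 genes as adults. Under the same rule, among genes that agreed against both 0CUG strains the largest differences, 123CUG strain 1 over 123CUG strain 2, were fitted log2 values of 11.52 for fbxa-222, 11.01 for srx-50 and 6.78 for moa-1, where 123CUG strain 2 had no or nearly no reads and the first 2 values depend on the prior count, and -1.70 for adh-1, -1.76 for fat-5 and -1.97 for math-44.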

How the results depend on the processing

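Under 6 other settings the count of genes higher against both 0CUG strains lay between 366 and 479 (main 455) and of genes lower between 183 and 291 (main 232); with DESeq2 439 of the 455 and 231 of the 232 were called again. Leaving out 1 library at a time gave 331 to 464 and 164 to 266. Genes called against 0CUG strain 2 numbered 1800 to 3280 (main 2722), the low end without its replicate 2. The count against 123CUG strain 2 was 429 to 522 (main 759) when libraries of 123CUG strain 1 were left out, and 1169 without the filter on low counts. The stage difference had 827 genes in DESeq2 (main 512). Same-numbered libraries did not deviate together more than others (correlations between -0.0169 and 0.0375, against -0.0469 to 0.0401 for different numbers). No pairing by number was seen, though these correlations cannot show how the libraries were handled. With the replicate block 477 genes were higher and 241 lower. No called direction reversed in the 95 genes chosen by the rule or added by name, or in 18 others named in the text; over gene, control and setting, 2747 kept their side of the threshold, 4 passed it anew and 99 lost it, 15 of these with 12 libraries in the fit, for the 95. In the 18, 12 calls ended or began, and act-1 missed the threshold against 0CUG strain 1 with 12 libraries in the fit (adjusted p = 0.0651). That fit called 0 eggshell, 1 ribosomal protein and 4 respiratory chain genes against both. Genes under about 5 CPM rest on few reads.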
